A study of Mus musculus with 20 samples.

Results

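The Toll-like receptors of 2 tumour-associated myeloid populations were followed through 10 genes, Tlr1, Tlr2, Tlr3, Tlr4, Tlr6, Tlr7, Tlr8, Tlr9, Tlr12 and Tlr13, out of 23090 genes counted in each library. The 10 were taken by symbol and matched to the Entrez gene IDs of the count tables. They were chosen with earlier results of these data known. All 10 were found, and all 10 passed the filter on low counts in every comparison. The tables also held the mouse genes Tlr5 and Tlr11, which are not among the 10 and are given by their levels at the end.

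RNA was sequenced after poly-A selection from 20 libraries in 4 groups of 5. The host of every group was the female SCID.beige mouse, aged 6 to 8 weeks, a strain without T and B cells and with defective NK cells, bearing a subcutaneous tumour grown from injected cells of MDA.MB.231-X1.1, a human breast cancer line, or of CT26, a mouse colon carcinoma line. Which line a library came from is not stated in the labels, so the tumour line and the groups cannot be told apart. Once tumours averaged 150 to 200 mm3, mice received MCT (vehicle) or 25 mg/kg GNE-781, called CBPi-781 in the treatment label and CBPi here, by gavage BID for 7 days. Both populations were sorted from digested tumours as CD45+, CD11b+, Ly6C+ and F4-80- cells. The monocytic myeloid-derived suppressor cells (mMDSC) were Ly6G-, and the granulocytic ones (gMDSC) were Ly6G+. Libraries carry the numbers of their titles, 1 to 5 for vehicle and 6 to 10 for CBPi, in both cell types. Nothing in the labels ties a library to a single mouse. The p-values therefore cover only how these libraries vary, some of which may be technical.

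Toll-like receptors are transmembrane sensors whose leucine-rich repeats bind microbial molecules or the nucleic acids of damaged cells. TLR1, TLR2, TLR4 and TLR6 work at the cell surface, where TLR2 pairs with TLR1 or TLR6 to read bacterial lipopeptides and TLR4 reads lipopolysaccharide with its partner MD-2. TLR3, TLR7, TLR8, TLR9, TLR12 and TLR13 work in endosomes and are escorted there by UNC93B1. Most signal through the adaptor MyD88 to NF-kB and interferon regulatory factors, and TLR3 signals through TRIF, encoded by Ticam1. In myeloid cells of a tumour these receptors are known as routes by which debris and bacterial products switch on inflammatory genes. CBP and EP300 are histone acetyltransferases, and GNE-781 blocks the bromodomain with which they bind acetylated histones.

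In the RefSeq annotation of GRCm38.p6, Tlr2 lies on chromosome 3 (83836272 to 83841824, minus strand), Tlr3 on chromosome 8 (45395665 to 45411075, minus strand), Tlr9 on chromosome 9 (106222598 to 106226876, plus strand) and Tlr13 on chromosome X (106143275 to 106160493, plus strand), far from the other X-linked members. Tlr1 (64924680 to 64933600) and Tlr6 (64953092 to 64970942) lie on the minus strand of chromosome 5 with 19491 bases between them. Tlr8 (167241123 to 167264329, minus strand) and Tlr7 (167303380 to 167330574) lie on chromosome X with 39050 bases between them. Chromosome 4 carries Tlr4 (66827551 to 66846581) and Tlr12 (128615446 to 128618619, minus strand), which are not close.

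The 250 bases before the annotated start are shown for 4 endosomal receptor genes. Tlr12 is shown because it moved most under CBPi, Tlr9 and Tlr13 because they fell in mMDSC, and Tlr8 because it did not pass the test. They are printed 5′ to 3′ on the gene's strand from RefSeq (GRCm38.p6), with matches to searched motifs in capitals. The windows are chr4:128618620-128618869 (minus) for Tlr12, chr9:106222348-106222597 (plus) for Tlr9, chrX:106143025-106143274 (plus) for Tlr13 and chrX:167264330-167264579 (minus) for Tlr8.
Tlr12: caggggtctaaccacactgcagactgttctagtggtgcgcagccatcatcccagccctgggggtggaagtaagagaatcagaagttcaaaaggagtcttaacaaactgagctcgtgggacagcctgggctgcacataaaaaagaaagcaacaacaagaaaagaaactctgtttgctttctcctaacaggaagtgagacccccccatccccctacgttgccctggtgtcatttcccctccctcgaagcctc
Tlr9: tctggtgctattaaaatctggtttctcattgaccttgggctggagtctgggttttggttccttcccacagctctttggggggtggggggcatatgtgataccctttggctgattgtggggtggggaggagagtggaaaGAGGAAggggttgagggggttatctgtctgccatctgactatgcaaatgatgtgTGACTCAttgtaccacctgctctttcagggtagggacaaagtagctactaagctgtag
Tlr13: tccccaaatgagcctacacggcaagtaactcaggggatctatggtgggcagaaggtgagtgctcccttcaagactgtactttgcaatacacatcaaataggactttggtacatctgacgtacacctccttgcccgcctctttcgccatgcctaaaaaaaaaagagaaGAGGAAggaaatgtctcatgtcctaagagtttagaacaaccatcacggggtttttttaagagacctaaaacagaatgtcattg
Tlr8: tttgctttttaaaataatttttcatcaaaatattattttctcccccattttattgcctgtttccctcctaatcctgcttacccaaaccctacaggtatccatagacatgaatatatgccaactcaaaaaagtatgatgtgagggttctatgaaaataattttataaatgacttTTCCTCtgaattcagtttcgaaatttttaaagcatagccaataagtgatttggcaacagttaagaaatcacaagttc
Windows were found for 8 of the 10 genes (10 windows, since Tlr1 and Tlr6 have 2 starts each). Tlr4 and Tlr7 had none. On both strands 4 motifs were searched: the core GAGGAA bound by the myeloid factor PU.1, the AP-1 motif TGANTCA, the interferon-response motif (GAAA, any 2 bases, GAAA) and the NF-kB motif (GGGA, any 4 bases, CC). The PU.1 core stood 112 bases before the start of Tlr9, 83 before Tlr13 and, on the other strand, 77 before Tlr8, and it was also in 1 window of Tlr1. Of 27025 RefSeq promoter windows of this length, 23.13% held it. Tlr9 also held the AP-1 motif, 58 bases before its start, as 6.868% of all windows did. The Tlr12 window held none of the 4 motifs. Tlr2 held 1 and Tlr3 2 matches of the NF-kB motif (17.33% of all windows), and 1 window of Tlr6 held 2 overlapping matches of the interferon-response motif (3.038%). These matches describe the letters of the windows and are not sites shown to be bound.

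Total counts ran from 12.37 to 26.64 mega-counts (M) per library, and the 10 receptor genes held between 34 and 50246 counts each in a library. Depth differed between the groups. Vehicle gMDSC 1 to 4 were at 12.37 to 14.1 M and vehicle gMDSC 5 at 23.27 M, against 19.74 to 22.43 M in CBPi gMDSC. In mMDSC the totals were 13.51 to 23.23 M with vehicle and 19.49 to 26.64 M with CBPi. Replicates of vehicle gMDSC were the least alike, with correlations of log2 CPM of 0.848 to 0.953 against 0.928 to 0.964 in the other groups, and all pairs with vehicle gMDSC 3 were at 0.878 or below. That library also had the highest sums of macrophage markers (75340 CPM against 32630 to 47070 in the other 4) and of neutrophil markers (34550 against 8627 to 17970). The labelled populations differed as their names say in Cxcr2, the chemokine receptor of neutrophils, at 956 to 1867 CPM in vehicle gMDSC against 0.232 to 2.72 in vehicle mMDSC. Ly6c2, which encodes the gated Ly6C, was at 619 to 1203 CPM in vehicle mMDSC and 20.5 to 68.7 in vehicle gMDSC. Against the gate, Adgre1, which encodes F4/80, was at 438 to 966 CPM in mMDSC and 583 to 1520 in gMDSC, C1qa of macrophages at 2989 to 5615 CPM in vehicle gMDSC, and Ly6g at only 0.438 to 9.2 CPM in vehicle gMDSC (lowest in library 5) and 0.529 to 2.14 in CBPi gMDSC. In such sorted bulk samples, fewer cells of a type and less RNA per cell cannot be told apart.

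Levels are counts per library size, with TMM scaling over all 20 libraries (CPM), and between genes they are compared only as CPM per kilobase of the deposited gene width, which is a coding length. On that scale Tlr2 was the highest of the 10 genes in 20 of 20 libraries. Its mean was 498 ± 19.6 (SD, n = 5) in vehicle mMDSC and 1005 ± 169 in vehicle gMDSC, and it made up 58.5% and 67.2% of the summed levels of the 10 genes. Tlr13 was the next in all 4 groups by its mean (111 ± 28.5 in vehicle mMDSC and 199 ± 65.5 in vehicle gMDSC). Tlr9 was the lowest in 17 libraries and Tlr12 in 3, all 3 of them CBPi mMDSC.

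In vehicle mMDSC the order by mean was Tlr2, Tlr13, Tlr1, Tlr7, Tlr4, Tlr8, Tlr12, Tlr3, Tlr6 and Tlr9. Only 3 neighbours in that order had library ranges that did not overlap: Tlr2 over Tlr13, Tlr1 over Tlr7 and Tlr6 over Tlr9. In vehicle gMDSC, Tlr4 (115 ± 35.8) and Tlr6 (50.5 ± 13.1) stood higher in the order, at the third and the fifth place. There the range of Tlr2 lay above that of Tlr13, Tlr4 above Tlr1, Tlr6 above Tlr12 and Tlr3 above Tlr9, and the other neighbours overlapped. Under CBPi the order in mMDSC ended with Tlr9 (3.19 ± 0.609) and Tlr12 (2.79 ± 0.787), whose ranges overlapped. Under CBPi the order in gMDSC was Tlr2, Tlr13, Tlr4, Tlr1, Tlr6, Tlr8, Tlr7, Tlr3, Tlr12 and Tlr9, with overlap between all neighbours from Tlr8 to Tlr12.

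**Figure D1:**
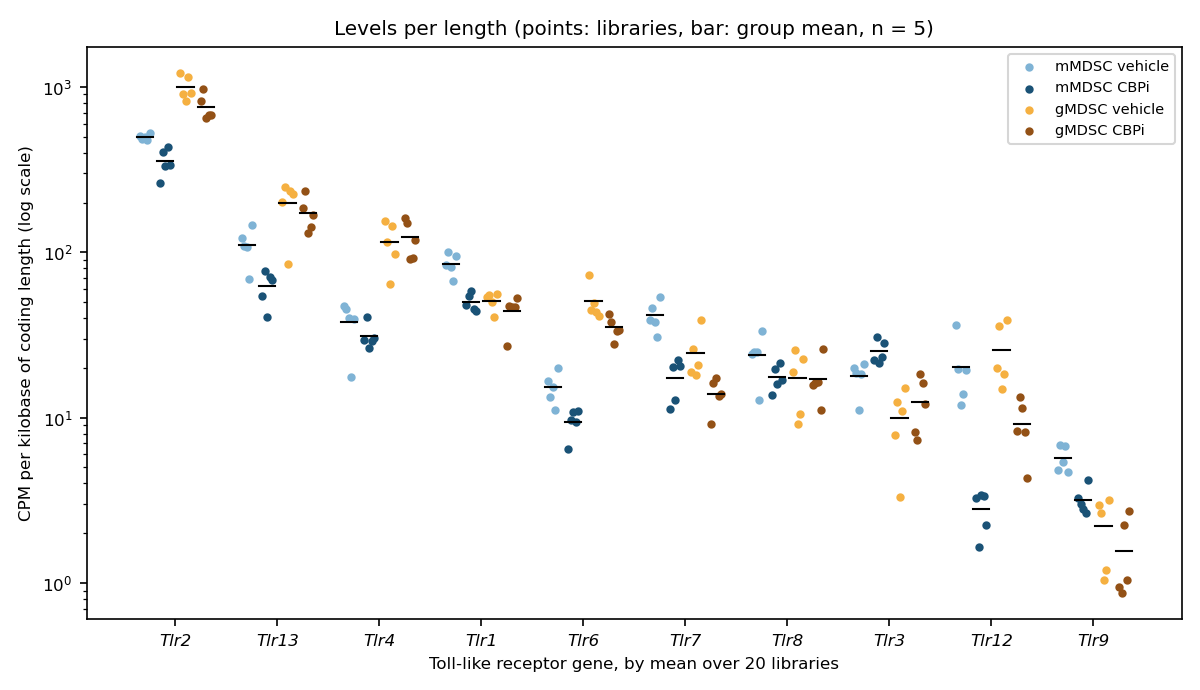
CPM per kilobase of coding length (log axis) of the 10 receptor genes in each library (points) with group means (bars, n = 5), ordered by the mean over 20 libraries. Tlr2 is the highest gene in all 20 libraries, and the 5 CBPi mMDSC points of Tlr12 (1.66 to 3.41) lie below those of the other groups.

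In mMDSC, 7 of the 10 receptors fell under CBPi and none rose: the surface receptors Tlr1, Tlr2 and Tlr6 and the endosomal receptors Tlr7, Tlr9, Tlr12 and Tlr13. The largest change was that of Tlr12, which was 7.33-fold lower, followed by Tlr7 at 2.4-fold lower. Over all genes tested in this comparison (11912), 5.54% were called lower and 3.02% higher at an adjusted p under 0.05, 8.56% in either direction. The median log2 fold change of the 10 receptors was -0.74, beside 0.01 over all genes tested. Adjusted p-values here and below come from the quasi-likelihood test of edgeR, with the Benjamini-Hochberg method over all genes tested in the comparison. Fold changes are on the log2 scale with their standard errors, and intervals are 95% intervals.

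Among the surface receptors, Tlr2, the shared partner for lipopeptides, was at 1208, 1147, 1192, 1138 and 1253 CPM in the vehicle libraries 1 to 5. With CBPi (libraries 6 to 10) it was at 627, 964, 794, 1032 and 807 CPM. The groups did not overlap, the vehicle libraries were close to each other and the spread lay in the CBPi group. Tlr2 fell by 0.50 ± 0.13 on the log2 scale (adjusted p = 0.0289).

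Tlr1, the TLR2 partner for triacyl lipopeptides, was at 199, 241, 194, 161 and 227 CPM with vehicle and 114, 130.1, 140.1, 109 and 106 CPM with CBPi. Every vehicle library lay above every CBPi library, and the log2 fold change was -0.78 ± 0.13 (adjusted p = 0.0024). Tlr6, the TLR2 partner for diacyl lipopeptides, was a less abundant transcript at 40.5, 32.1, 37.2, 26.8 and 48.3 CPM with vehicle and 15.6, 23.5, 26.1, 22.9 and 26.4 with CBPi. Its highest CBPi library (26.4) was just under its lowest vehicle library (26.8), and the log2 fold change was -0.70 ± 0.19 (adjusted p = 0.0403).

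Tlr4, the lipopolysaccharide receptor, was at 119, 114, 100.4, 44.2 and 99.3 CPM with vehicle and 74.1, 102, 66.2, 73.1 and 76.2 with CBPi. Vehicle library 4 was the lowest of all 10 and CBPi library 7 was above 3 vehicle libraries, so the groups overlapped. The log2 fold change of -0.29 ± 0.23 did not pass the test (adjusted p = 0.5, interval -0.78 to 0.20).

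Among the endosomal receptors, Tlr12, a receptor for the profilin of apicomplexan parasites in mice, was at 98.4, 53.6, 32.7, 37.9 and 52.6 CPM in vehicle mMDSC. With CBPi it was at 8.85, 4.52, 9.27, 9.14 and 6.15 CPM. The lowest vehicle library was far above the highest CBPi library, and the log2 fold change was -2.87 ± 0.31 (adjusted p = 0.000135, interval -3.55 to -2.20). Counts were 485 to 2003 per library with vehicle and 124 to 255 with CBPi, so the lower level rested on counts well above 0.

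Tlr7, a receptor for single-stranded RNA, was at 124, 147, 119.6, 97.8 and 170.4 CPM with vehicle and 35.5, 64.4, 40.7, 70.3 and 64.7 with CBPi. The groups were apart, and the log2 fold change was -1.26 ± 0.21 (adjusted p = 0.00275). Its neighbour on chromosome X, Tlr8, ran from 39.4 to 104 CPM with vehicle and from 42.4 to 66.7 with CBPi. Those groups overlapped through vehicle library 4, the lowest of the 10, and the log2 fold change of -0.47 ± 0.22 did not pass the test (adjusted p = 0.227, interval -0.93 to 0.00).

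Tlr9, the receptor for unmethylated CpG DNA, was a low transcript at 14.9, 21.1, 16.6, 21 and 14.6 CPM with vehicle and 10.2, 9.36, 8.65, 8.21 and 13 with CBPi. All vehicle libraries were higher, with a log2 fold change of -0.84 ± 0.19 (adjusted p = 0.014). Tlr13, which reads bacterial ribosomal RNA, was at 363, 324, 320.3, 204 and 438 CPM with vehicle and 163, 228, 121, 211 and 203 with CBPi. It fell by 0.84 ± 0.21 on the log2 scale (adjusted p = 0.0261), though vehicle library 4 lay among the CBPi libraries.

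Tlr3, the receptor for double-stranded RNA, was the one member with a higher mean under CBPi in mMDSC. It was at 54.1, 50.3, 30.4, 49.7 and 57.1 CPM with vehicle and 60.3, 84.1, 58.4, 63.2 and 76.5 with CBPi. All CBPi libraries were above all vehicle libraries, but the log2 fold change of 0.49 ± 0.18 did not pass the test (adjusted p = 0.114, interval 0.11 to 0.88). With Tlr3, 7 of the 10 receptors had groups that did not overlap, as did 9.76% of all genes tested.

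**Figure D2:**
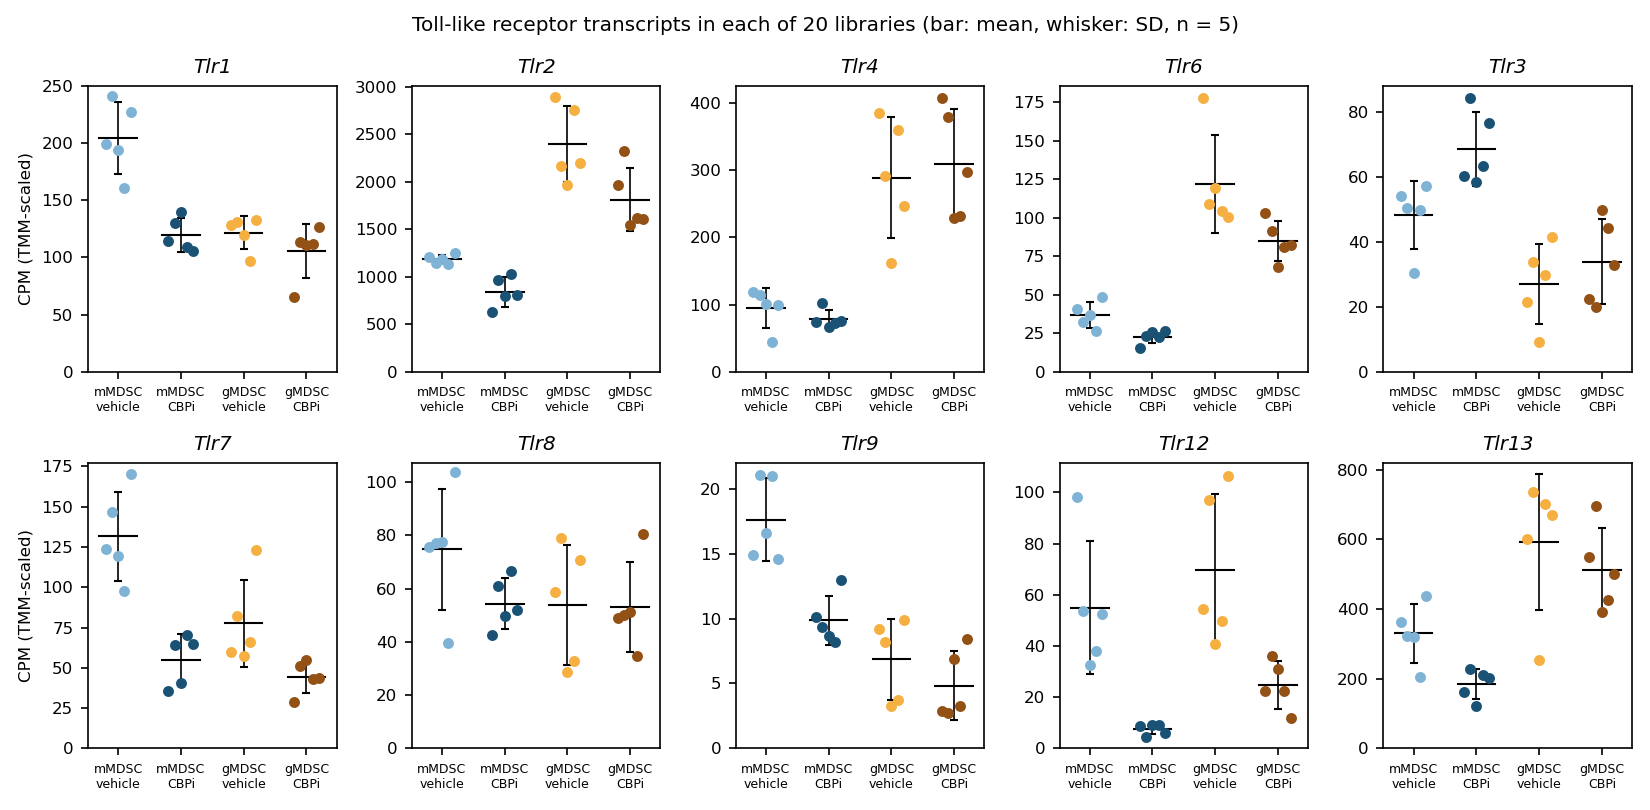
TMM-scaled CPM of each receptor gene in each of the 20 libraries (points), by group, with the mean (bar) and SD (whisker), n = 5. In mMDSC the CBPi points of Tlr1, Tlr2, Tlr6, Tlr7, Tlr9 and Tlr12 all lie below the vehicle points, and those of Tlr3 all lie above.

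Calls in mMDSC were not equally firm. Tlr1, Tlr7 and Tlr12 passed in all 15 alternatives run, and Tlr9 in 14, missing in a fit of all 20 libraries together (adjusted p = 0.203). Tlr2 did not pass in that fit (0.0575), nor without any one of vehicle libraries 1, 2, 3 or 5 or CBPi libraries 8 or 10 (0.0536 to 0.0761). Tlr13 likewise did not pass in that fit (0.0574), nor without any one of vehicle libraries 1, 2, 3 or 5 or CBPi libraries 6 or 10 (0.0502 to 0.0657). Tlr6 did not pass without any one of vehicle libraries 1, 2, 3 or 5 or of the 5 CBPi libraries (0.051 to 0.101). Without vehicle library 4, Tlr8 passed as well (0.0303).

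The summed level of the 4 surface receptors ran from 573 to 679.8 CPM per kilobase in vehicle mMDSC and from 347 to 517 with CBPi. That of the 6 endosomal receptors ran from 151 to 279 with vehicle and from 97.3 to 152 with CBPi, so the surface sums were apart and the endosomal sums just overlapped. No test was made of the sums. The endosomal share of the total was 20.9% to 29.1% with vehicle and 18.5% to 24.8% with CBPi.

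Markers of monocytes and of other cells moved in the same libraries, where 3.02% of all genes tested were called higher and 5.54% lower. The summed level of the 7 monocyte markers was 5749 to 6898 CPM in vehicle mMDSC and 4173 to 5588 with CBPi, with 2 of 7 lower and none higher. They were Ccr2, at 653 ± 99.4 CPM with vehicle and 198 ± 22.3 with CBPi, and Ly6c2, at 832 ± 245 and 354 ± 56.2. Of the 5 tested genes of the sort gate, 4 fell (Ly6c2, Ly6c1, Ptprc and Adgre1). The 10 neutrophil markers summed to 339 to 399.6 CPM with vehicle and 202 to 326 with CBPi, without overlap, and 1 of 8 tested fell, Mmp8 (-1.61 ± 0.31). Of 3 markers of T and NK cells tested, Klrb1c fell (-2.06 ± 0.55), at 0.93 to 4.21 CPM with vehicle and 0.182 to 0.86 with CBPi. The 7 macrophage markers summed to 21610 to 30890 CPM with vehicle and 18880 to 23440 with CBPi, with Mrc1 higher and Adgre1 and C1qc lower. Of 6 markers of conventional dendritic cells tested, which include cells rich in Tlr3 and Tlr12, Batf3 fell. The 8 on the list summed to 39 to 73.6 CPM with vehicle and 50 to 91.2 with CBPi. From vehicle to CBPi, means were lower for Batf3 (12.8 to 4.22 CPM), Clec9a (1.46 to 0.321), Itgae (1.69 to 0.635) and Xcr1 (0.726 to 0). Means were higher for Ccr7 (21.1 to 36.4 CPM), Cd209a (10.4 to 12.85), Flt3 (4.28 to 7.33) and Zbtb46 (0.224 to 0.506). Their part in the receptor changes was not tested. Plasmacytoid dendritic cells carry Tlr7, Tlr9 and Tlr12, and B cells carry Tlr7 and Tlr9. In mMDSC their marker Siglech was at 3.55 CPM at most, Ly6d at 0.426 at most, and the B cell factor Pax5 at 0 in all 10 libraries. Cd79b, the one B cell marker that passed the count filter, was at 7.07 to 18.2 CPM with vehicle and 6.52 to 12.5 with CBPi (-0.10 ± 0.29, adjusted p = 0.884), around the level of Tlr9. The 9 plasmacytoid markers summed to 486 to 823 CPM with vehicle and 488 to 649 with CBPi, mostly Bst2 and Tcf4, which other cells share. Of 7 tested, 1 fell, Ccr9, from 1.05 ± 0.425 to 0.0437 ± 0.0978 CPM (-4.43 ± 1.02, adjusted p = 0.0175). Klk1 (-1.70 ± 0.65, adjusted p = 0.134) and Siglech (0.48 ± 0.63, adjusted p = 0.72) did not pass.

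In gMDSC, Tlr12 was the one receptor of 10 that fell under CBPi, 2.77-fold, and none rose. In this comparison 5.52% of 11694 genes tested were called lower and 4.18% higher, 9.71% in either direction. Tlr12 was at 54.4, 96.9, 40.7, 49.9 and 107 CPM with vehicle and 22.5, 36.2, 31.1, 22.2 and 11.7 with CBPi. All vehicle libraries lay above all CBPi libraries, with a log2 fold change of -1.47 ± 0.34 (adjusted p = 0.0185, interval -2.21 to -0.73). It passed in all 16 alternatives run, among them the one without vehicle library 3 (-1.62, adjusted p = 0.00742) and the one without both vehicle libraries 3 and 5 (-1.40, adjusted p = 0.0272).

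Tlr7 in gMDSC was at 59.6, 81.9, 57.5, 66.2 and 123 CPM with vehicle and 28.8, 51.3, 55.1, 42.8 and 43.8 with CBPi. Its groups did not overlap either, which made 2 of the 10 receptors beside 12.2% of all genes tested. The log2 fold change of -0.78 ± 0.25 did not pass the test (adjusted p = 0.0682, interval -1.32 to -0.24). It did pass without vehicle library 3 (adjusted p = 0.0373), with DESeq2 (0.0255) and in the fit of all 20 libraries (0.0223), and not without both vehicle libraries 3 and 5 (0.116).

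The other 8 receptors had overlapping groups in gMDSC and did not pass the test. The surface receptor Tlr2 was at 2896, 2168, 1967, 2754 and 2202 CPM with vehicle and 1966, 2326, 1545, 1622 and 1607 with CBPi, a log2 fold change of -0.36 ± 0.17 (adjusted p = 0.191, interval -0.72 to 0.00). Tlr6 was at 178, 109, 119, 105 and 100.4 CPM with vehicle and 103, 91.5, 68, 81.3 and 82.5 with CBPi, a log2 fold change of -0.47 ± 0.18 (adjusted p = 0.112, interval -0.86 to -0.09). Vehicle library 1 held the highest value of both genes. Tlr1 ran from 96.8 to 133 CPM with vehicle and from 65.1 to 127 with CBPi (log2 fold change -0.17 ± 0.19, interval -0.57 to 0.24). Tlr4 ran from 162 to 386 CPM with vehicle and from 228 to 407 with CBPi (0.14 ± 0.24, interval -0.38 to 0.66).

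Among the endosomal receptors of gMDSC that did not pass, Tlr13 was at 601, 736, 255, 701 and 669.6 CPM with vehicle, where library 3 was far below the other 4, and 549.8, 695, 391, 426 and 500.1 with CBPi. Its log2 fold change was -0.18 ± 0.26 (interval -0.74 to 0.39), and without that library it was -0.37 (adjusted p = 0.191). Tlr3 ran from 9.06 to 41.3 CPM with vehicle and from 19.9 to 49.6 with CBPi (0.35 ± 0.37, interval -0.46 to 1.15). Vehicle library 3 was again the lowest. Tlr8 (0.01 ± 0.31, interval -0.66 to 0.68) and Tlr9 (-0.46 ± 0.47, interval -1.48 to 0.55) had the wide intervals of low or variable transcripts. The median log2 fold change of the 10 receptors in gMDSC was -0.27, beside 0.00 over all genes tested.

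**Figure D3:**
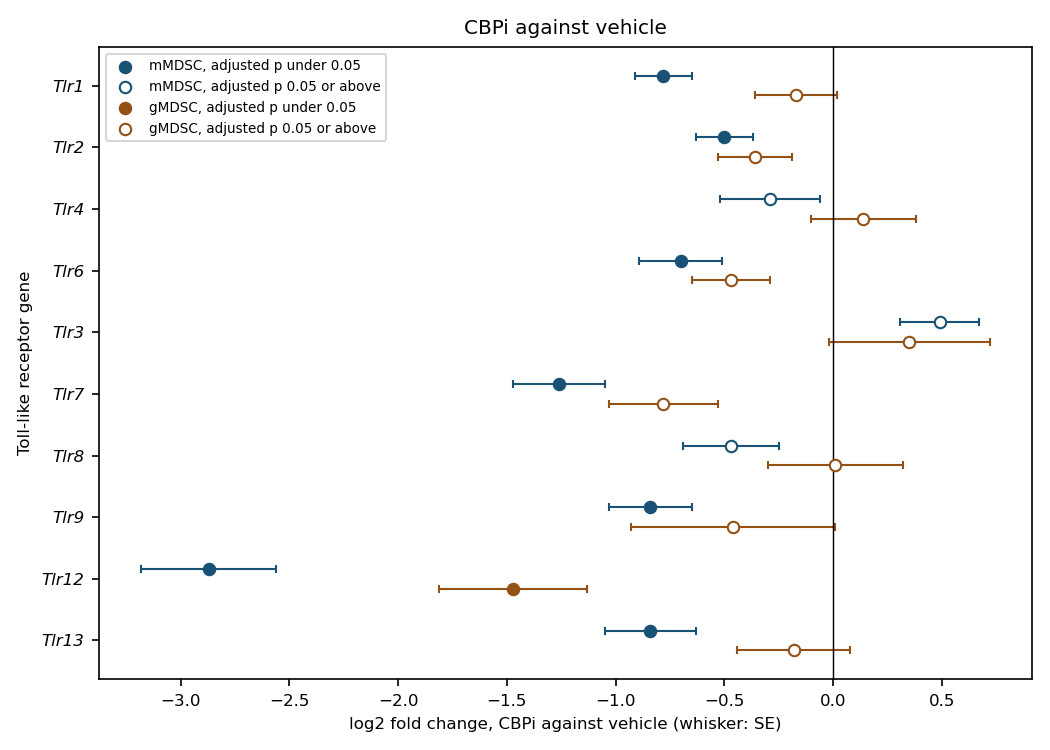
Log2 fold change of each receptor gene, CBPi against vehicle, in mMDSC (blue) and gMDSC (brown), with the standard error as whisker and filled points for an adjusted p under 0.05 (n = 5 libraries a group). In mMDSC 7 points are filled, from -0.50 (Tlr2) to -2.87 (Tlr12), and in gMDSC only Tlr12 at -1.47.

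Sums of markers also moved in gMDSC, where 4.18% of all genes tested were called higher and 5.52% lower. The 10 neutrophil markers summed to 8627 to 34550 CPM with vehicle and 6961 to 13320 with CBPi, and 4 of 10 fell, the granule genes Ltf, Ngp and Camp and the receptor Cxcr2. The 7 macrophage markers summed to 32630 to 75340 CPM with vehicle and 15760 to 30800 with CBPi, ranges that did not overlap, and 1 of 7 fell (Apoe). The 7 monocyte markers summed to 1787 to 3670 CPM with vehicle and 1801 to 2441 with CBPi, with F13a1 higher and Ccr2 and Ly6c2 lower. Of the 6 genes of the sort gate, 2 fell, Ly6c2 and Ly6c1, and Ly6g did not pass (-2.37 ± 0.70, adjusted p = 0.0502). Cd79b, the one B cell marker tested, was at 10.8 to 27.7 CPM with vehicle and 8.35 to 21.9 with CBPi (-0.32 ± 0.30, adjusted p = 0.544). Of 5 markers of conventional dendritic cells tested, Batf3 fell (-1.96 ± 0.35) and Ccr7 rose (2.71 ± 0.80). The 8 on the list summed to 21.4 to 35.1 CPM with vehicle and 20.6 to 40.3 with CBPi. Means were also lower with CBPi for Clec9a (1.46 to 0.339 CPM), Itgae (3.78 to 0.764), Xcr1 (3.25 to 0.0602) and Zbtb46 (0.819 to 0.257). Means were higher for Cd209a (0.827 to 2.93 CPM) and Flt3 (1.73 to 2.07). The 5 markers of T and NK cells summed to 12.4 to 54 CPM with vehicle and 2.26 to 5.37 with CBPi, ranges that did not overlap, and 2 of 3 tested fell, Cd3d (-2.73 ± 0.48) and Klrb1c (-2.70 ± 0.65). With vehicle that sum was mostly Cd3d, at a mean of 20.7 CPM. Ncr1 was at 3.25 CPM, Klrb1c at 2.87, Cd2 at 0.826 and Cd3e at 0.0864, so the other T cell markers were near 0. The 9 plasmacytoid markers summed to 408 to 735 CPM with vehicle and 282 to 344 with CBPi, also without overlap, though none of 5 tested passed. Of these, Bst2 was at 381 ± 144 and 230 ± 23.8 CPM (-0.69 ± 0.21, adjusted p = 0.0587) and Tcf4 at 94.5 ± 12.1 and 68.3 ± 11.6 (-0.43 ± 0.17, adjusted p = 0.128), with Siglech at 0 to 5.48 CPM with vehicle and 0.0648 to 2.6 with CBPi and Spib at 0 in all 10 libraries. The 4 epithelial and tumour markers summed to 19.6 to 53.5 CPM with vehicle and 1.97 to 6.44 with CBPi, with Krt18 and Krt8 lower of 3 tested and Epcam at 2.8 CPM at most. In mMDSC they summed to 3.73 to 4.42 and 0.932 to 2.94 CPM, with Krt8 lower of 3 tested. Their part in the fall of Tlr12 was not tested.

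Whether the 2 cell types responded differently was tested as an interaction over all 20 libraries. No receptor passed, in either direction, in edgeR or in any of the 26 alternatives run, DESeq2 and limma-voom among them, and 0.725% of 12688 genes tested did. At an unadjusted p under 0.05 stood 2 of the 10 receptors, Tlr12 and Tlr1, beside 1454 of the 12688 genes tested. For Tlr12 the response in gMDSC was less negative by 1.36 ± 0.47 (adjusted p = 0.236, interval 0.38 to 2.35). For Tlr1 the difference was 0.56 ± 0.23 (adjusted p = 0.328, interval 0.10 to 1.03), and the remaining 8 ran from -0.19 (Tlr3) to 0.62 (Tlr13). The 7 calls in mMDSC beside 1 in gMDSC are therefore not shown to be a difference between the cell types.

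Between the cell types given vehicle, 7 of the 10 receptors differed. Of the surface receptors, Tlr2, Tlr4 and Tlr6 were higher in gMDSC, 2.04-, 3.07- and 3.34-fold, and Tlr1 was lower, 1.65-fold. Of the endosomal receptors, Tlr9 (2.53-fold) and Tlr7 (1.66-fold) were lower in gMDSC and Tlr13 was higher (1.83-fold). That made 4 receptors higher and 3 lower, and of 11576 genes tested 13.6% were called higher and 8.08% lower, 21.7% in either direction. The median over the 10 receptors was -0.03 on the log2 scale, beside -0.06 over all genes tested. In 5 receptors (Tlr1, Tlr2, Tlr4, Tlr6 and Tlr9) the groups did not overlap, as in 20.2% of all genes tested.

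By library, the lowest vehicle gMDSC value of Tlr6 (100.4 CPM) was above the highest vehicle mMDSC value (48.3), with a log2 fold change of 1.74 ± 0.20 (adjusted p = 4.75e-05). Tlr4 was at 386, 291, 162, 359 and 247 CPM in vehicle gMDSC, all above the 44.2 to 119 of vehicle mMDSC (log2 fold change 1.62 ± 0.28, adjusted p = 0.000976). The lowest Tlr2 value in vehicle gMDSC, 1967 CPM in library 3, was also above all 5 of vehicle mMDSC (1.03 ± 0.13, adjusted p = 0.000106). Tlr1 went the other way, at 128, 131, 120.1, 96.8 and 133 CPM in vehicle gMDSC, below all vehicle mMDSC libraries (-0.73 ± 0.15, adjusted p = 0.0035). All 4 calls held in the 17 alternatives run.

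Tlr9 in vehicle gMDSC was at 9.2, 8.2, 3.24, 3.71 and 9.9 CPM, below all libraries of vehicle mMDSC, and was called in all 17 alternatives (-1.34 ± 0.35, adjusted p = 0.0146). Tlr7 (-0.73 ± 0.23, adjusted p = 0.04) and Tlr13 (0.87 ± 0.27, adjusted p = 0.0371) overlapped between the cell types and were less firm. Tlr7 did not pass without any one of mMDSC libraries 1, 2, 3 or 5 or gMDSC libraries 1, 2 or 4 (0.0613 to 0.0987). Tlr13 did not pass without any one of mMDSC libraries 1 to 4 or gMDSC libraries 1, 2, 4 or 5 (0.0626 to 0.0902), or with limma-voom (0.0551), and it did without gMDSC library 3 (1.04, adjusted p = 0.0014).

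Tlr3, Tlr8 and Tlr12 did not pass in vehicle. Tlr12 overlapped fully, at 32.7 to 98.4 CPM in mMDSC and 40.7 to 107 in gMDSC (0.37 ± 0.34, interval -0.37 to 1.11). Tlr3, at 21.5, 33.7, 9.06, 29.8 and 41.3 CPM in gMDSC, had a log2 fold change of -0.81 ± 0.34 (adjusted p = 0.116, interval -1.54 to -0.07). It passed in the fit of all 20 libraries (0.0486) and without both gMDSC libraries 3 and 5 (-0.76, adjusted p = 0.0378). The Tlr8 log2 fold change was -0.44 ± 0.31 (interval -1.12 to 0.24).

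Under CBPi, 5 receptors were higher in gMDSC than in mMDSC and 2 lower, where 20.1% of 11895 genes tested were called higher and 19.1% lower, 39.2% in either direction. Tlr4 (4.08-fold), Tlr6 (3.86-fold), Tlr13 (2.87-fold), Tlr2 (2.23-fold) and Tlr12 (3.39-fold) were higher. Tlr3 and Tlr9 were lower, each 1.95-fold. The groups did not overlap in 6 receptors (all those called except Tlr9), beside 29.9% of all genes tested. The median over the 10 receptors was 0.59, beside -0.05 over all genes tested. This comparison shares its libraries with both CBPi comparisons, so its values are not independent of them.

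Tlr12 under CBPi was 24.8 ± 9.38 CPM (SD, n = 5) in gMDSC and 7.59 ± 2.14 in mMDSC, a log2 fold change of 1.76 ± 0.30 (adjusted p = 0.000459). In vehicle its value was 0.37 ± 0.34, so Tlr12 was past the test under CBPi and not in vehicle, and the difference between these is the interaction given above, which did not pass. Tlr3 was at 19.9 to 49.6 CPM in CBPi gMDSC, below the 58.4 to 84.1 of CBPi mMDSC (-0.96 ± 0.24, adjusted p = 0.00651). Tlr9 (-0.96 ± 0.34, adjusted p = 0.0398) did not pass without any one of the 5 mMDSC libraries or gMDSC libraries 6, 7 or 9 (0.0507 to 0.0968). Tlr1, Tlr7 and Tlr8 did not pass, at -0.13 ± 0.17, -0.26 ± 0.22 and 0.02 ± 0.21.

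**Figure D4:**
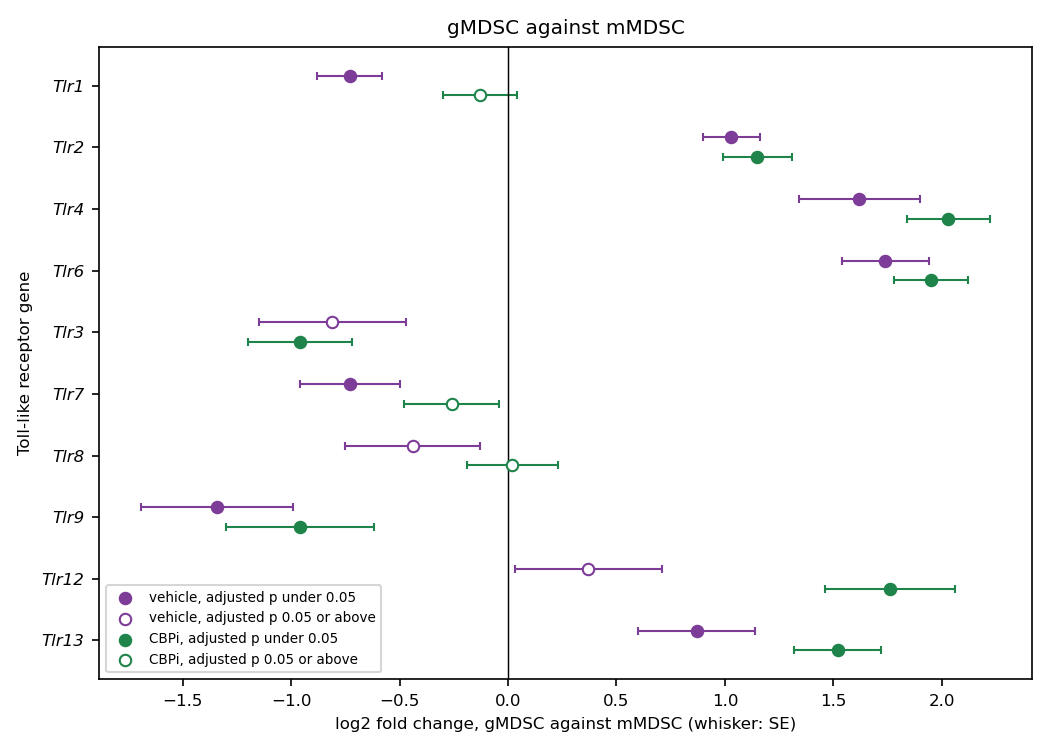
Log2 fold change of each receptor gene, gMDSC against mMDSC, in vehicle (purple) and under CBPi (green), with the standard error as whisker and filled points for an adjusted p under 0.05 (n = 5 libraries a group). Tlr2, Tlr4, Tlr6 and Tlr13 are filled to the right of 0 in both, Tlr9 is filled to the left in both, and Tlr12 is filled only under CBPi, at 1.76.

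Neighbouring receptor genes were set against each other within a library. The pairs were chosen after their values were seen, so the ratios are given as a description, with no test. The log2 ratio of the levels per length of Tlr6 to Tlr1, the alternative partners of TLR2, was -2.50 ± 0.27 (SD, n = 5) in vehicle mMDSC and -0.04 ± 0.34 in vehicle gMDSC. The difference was 2.46, and under CBPi it was 2.12. The ratio was below 0 in all 10 mMDSC libraries (-2.93 to -2.02) and on both sides of 0 in gMDSC (-0.73 to 0.64).

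The log2 ratio of Tlr7 to Tlr8 was 0.83 ± 0.28 in vehicle mMDSC and -0.05 ± 0.25 in CBPi mMDSC (SD, n = 5). The difference was -0.87, with every CBPi library below every vehicle library. In gMDSC the ratio was 0.55 ± 0.50 with vehicle and -0.27 ± 0.54 with CBPi, a difference of -0.82 with wider and overlapping ranges.

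The partners of the receptors were taken from 7 lists by role, 77 genes in all. In mMDSC the list medians of the log2 fold change ran from -0.43 (adaptors) to 0.21 (co-receptors), and in gMDSC from -0.58 (co-receptors) to 0.32 (negative regulators), beside 0.01 and 0.00 over all genes tested. In mMDSC under CBPi, 1 of 8 co-receptors rose and 1 fell, beside 3.02% of all genes tested called higher and 5.54% lower. Cd180, which encodes the TLR-like surface protein RP105 of the lipopolysaccharide pathway, was at 42.4 ± 5.3 CPM with vehicle and 14.8 ± 2.53 with CBPi (SD, n = 5), a log2 fold change of -1.53 ± 0.16 (adjusted p = 8.23e-05). Cd14, which hands lipopolysaccharide to TLR4, rose from 3679 ± 1248 to 6800 ± 617 CPM (0.88 ± 0.18, adjusted p = 0.00999). None of 9 genes for receptor trafficking passed the test, with Unc93b1 at 2034 ± 185 and 1652 ± 183 CPM (-0.31 ± 0.10, adjusted p = 0.0932). Of 6 adaptors tested, 3 fell and none rose. They were Ticam2, the bridge from TLR4 to TRIF (-0.69 ± 0.15, adjusted p = 0.015), 5430427O19Rik, whose human counterpart TASL links endosomal receptors to IRF5 (-0.76 ± 0.17, adjusted p = 0.0146), and Myd88 (-0.38 ± 0.10, adjusted p = 0.0271).

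Farther down the pathway in mMDSC, none of 20 kinases and ubiquitin ligases passed, beside 3.02% of all genes tested called higher and 5.54% lower. Of 7 transcription factors 2 fell, Irf5 (604 ± 91 to 394 ± 36.1 CPM, -0.62 ± 0.12, adjusted p = 0.00704) and Irf8 (-0.50 ± 0.10, adjusted p = 0.00868), and Irf7 rose (0.28 ± 0.08, adjusted p = 0.0427). Of 14 negative regulators tested, 2 fell and 1 rose. The one that rose was Nfkbia, the inhibitor of NF-kB (1813 ± 601 to 3505 ± 388 CPM, 0.94 ± 0.18, adjusted p = 0.00637), and Tnip1, which restrains NF-kB with A20, fell (-0.83 ± 0.16, adjusted p = 0.00582), as did the deubiquitinase Otulin (-0.48 ± 0.12, adjusted p = 0.0221). Of 11 genes that process endosomal receptors or their ligands, 3 fell and none rose. Pld4, a nuclease that degrades single-stranded ligands of TLR9 and TLR7, went from 1519 ± 89 to 984 ± 46 CPM (-0.63 ± 0.08, adjusted p = 0.000367), and Ctss, a protease that cleaves endosomal receptors, from 7780 ± 1409 to 5243 ± 539.9 (-0.58 ± 0.12, adjusted p = 0.0101). The nuclease Dnase1l3 was the third (-1.61 ± 0.37, adjusted p = 0.0173).

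In gMDSC, where Tlr12 was the one receptor called, 3 of 8 co-receptors fell and none rose. Of all genes tested, 5.52% were called lower and 4.18% higher. Cd180 was at 26.6 ± 5.87 CPM with vehicle and 9.42 ± 2.09 with CBPi (-1.45 ± 0.25, adjusted p = 0.00346). Ly86, the binding partner of Cd180, went from 503 ± 90.5 to 231 ± 58.7 CPM (-1.09 ± 0.20, adjusted p = 0.00545), and the third was Cd36 (-1.17 ± 0.28, adjusted p = 0.0208). Trafficking again gave 0 of 9, and 2 of 6 adaptors fell, 5430427O19Rik (-0.80 ± 0.21, adjusted p = 0.0339) and Myd88 (-0.59 ± 0.17, adjusted p = 0.0424). Of 20 kinases and ligases the IKK subunit Chuk rose (0.71 ± 0.18, adjusted p = 0.0279) and Irak4, the first kinase of the MyD88 complex, fell (-0.55 ± 0.15, adjusted p = 0.0405).

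Of 7 transcription factors in gMDSC, 2 fell, Nfkb1 (-0.56 ± 0.13, adjusted p = 0.0181) and Irf8 (-0.57 ± 0.17, adjusted p = 0.0497). Over all genes tested the shares were 5.52% lower and 4.18% higher. Of 14 negative regulators tested 2 rose, Tollip (0.95 ± 0.27, adjusted p = 0.045) and Tnfaip3, which encodes A20 (929 ± 365 to 2435 ± 530 CPM, 1.44 ± 0.27, adjusted p = 0.00562), and 1 fell, Tnip1 (-1.02 ± 0.18, adjusted p = 0.00449). Of the 11 processing genes, 2 fell, Ctss (-0.92 ± 0.18, adjusted p = 0.00666) and Pld4 (-0.75 ± 0.16, adjusted p = 0.0131), and the protease gene Ctsl rose (0.61 ± 0.13, adjusted p = 0.0131). Past the test of a different response between the cell types were 0.725% of all genes tested and 1 pathway gene. That gene was the scavenger receptor Cd36, a helper of TLR2 (-1.80 ± 0.35, adjusted p = 0.0175). It was at 21 ± 3.84 and 31.3 ± 7.42 CPM in vehicle and CBPi mMDSC and at 33.2 ± 13.1 and 14.3 ± 3.38 in gMDSC.

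**Figure D5:**
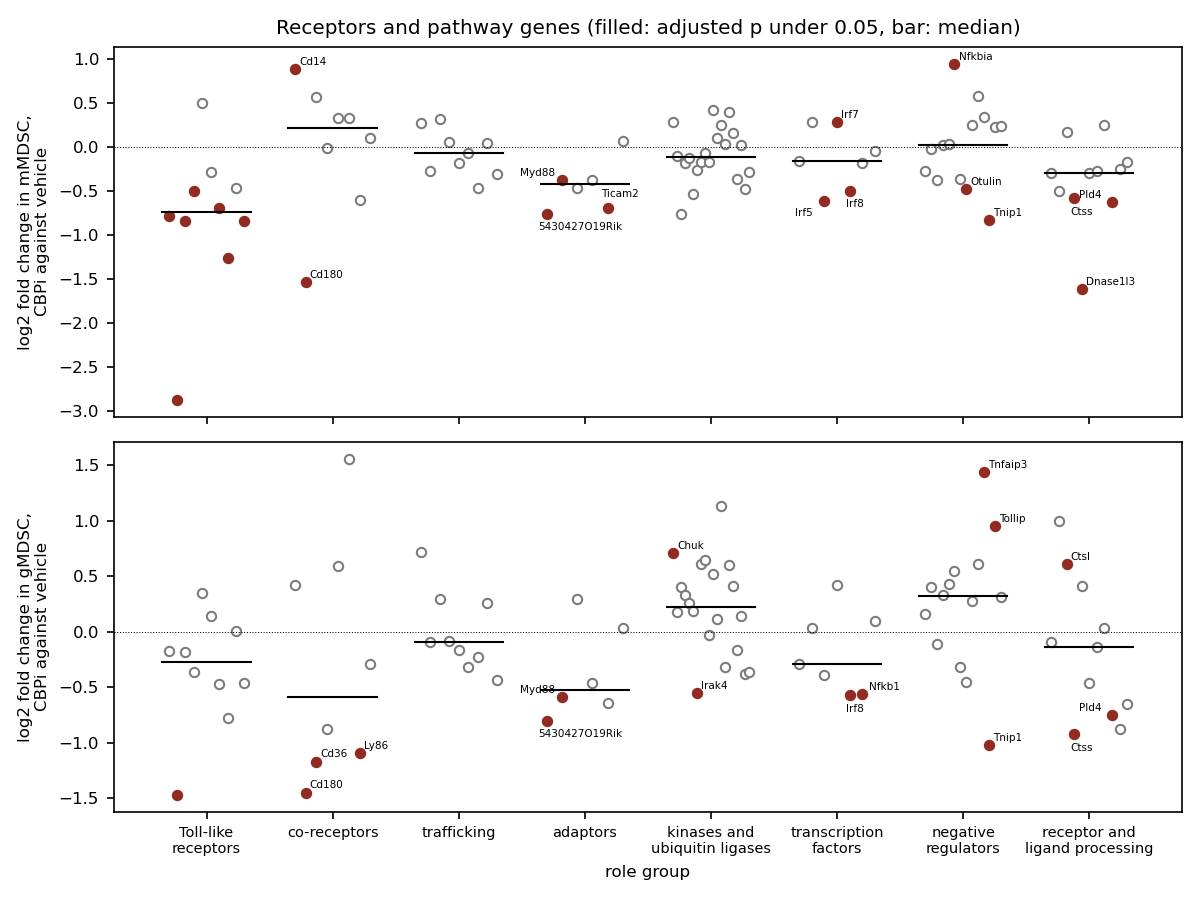
Log2 fold change, CBPi against vehicle, of the 10 receptors and of the tested genes of 7 role lists in mMDSC (top) and gMDSC (bottom), filled where the adjusted p was under 0.05, with a bar at each list's median. The median of the receptors is -0.74 in mMDSC and -0.27 in gMDSC, and no trafficking gene is filled in either.

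Between the cell types in vehicle, genes of the role lists were called both higher and lower in gMDSC, as were the receptors. Of all genes tested, 13.6% were called higher in gMDSC and 8.08% lower. Cd14 was at 16520 ± 4758 CPM in gMDSC and 3679 ± 1248 in mMDSC (2.17 ± 0.26, adjusted p = 6.34e-05), with Itgam higher as well (0.84 ± 0.28) and Cd180 lower among 8 co-receptors (-0.66 ± 0.19, adjusted p = 0.0273). Ly96, which encodes MD-2, did not pass (0.01 ± 0.23, adjusted p = 0.983). Of 6 adaptors, 3 were higher and none lower: Tirap, which brings MyD88 to TLR2 and TLR4 (1.30 ± 0.19, adjusted p = 0.000313), 5430427O19Rik (1.01 ± 0.24) and Myd88 (0.99 ± 0.15, adjusted p = 0.000333). Ticam1, the adaptor of TLR3, did not pass (-0.72 ± 0.25, adjusted p = 0.0524). Of 20 kinases and ligases 5 were higher, with Irak2 (1.26 ± 0.19) and Map3k8 (1.00 ± 0.16) at the smallest p before Peli1, Peli2 and Tab2, and 6 of 14 negative regulators were higher, with Nfkbia at 2.12 ± 0.35. Of 9 trafficking genes, 1 was lower (Lrrc59, -0.63 ± 0.19), and 2 of 11 processing genes were lower, the protease Ctsl (-0.85 ± 0.14) and the nuclease Dnase1l3 (-2.29 ± 0.60). Irf8 was lower (-0.58 ± 0.12) and Rela, an NF-kB subunit, higher (0.84 ± 0.18), within 7 transcription factors of which Creb1 was also higher and Irf5 also lower. Markers of the populations differed in the same libraries, with 5 of 9 neutrophil markers higher and none lower, 6 of 7 monocyte markers lower and none higher, and 4 of 7 macrophage markers higher and 1 lower, and their part in the receptor differences was not tested.

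Under CBPi the same comparison gave 2 co-receptors higher and 3 lower (Cd36, Ly86 and Cd180), 4 adaptors higher and 1 lower (Ticam1, -0.82 ± 0.21), 9 of 20 kinases and ligases and 9 of 14 negative regulators higher with none lower, and 3 of 11 processing genes lower, beside 20.1% of all genes tested called higher and 19.1% lower. Of 9 trafficking genes the chaperone Hsp90b1 (-0.45 ± 0.11) and Lrrc59 (-0.60 ± 0.14) were lower and Slc15a3 higher, and of 7 transcription factors Rela was higher (0.98 ± 0.14) and Irf8 (-0.66 ± 0.16) and Irf5 lower. The list medians ran from -0.30 (co-receptors) to 0.87 (adaptors), beside -0.05 over all genes tested. With the smallest p in their lists stood Cd14 (1.71 ± 0.14), Itgam (1.09 ± 0.17), Tirap (1.26 ± 0.16), Map3k8 (1.71 ± 0.17), Peli1 (1.12 ± 0.13), Ctss (-0.61 ± 0.15), Ctsl (-0.42 ± 0.11), Nfkbia (1.72 ± 0.12) and Tnfaip3 (2.18 ± 0.27).

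The genes whose pattern over the 20 libraries was most like that of each called receptor were named by the root mean square difference of centred log2 CPM, among 12687 other genes. For Tlr12 they were Vcam1 (0.587), Lilra5 (0.64) and Tmem119 (0.647), beside a spread of Tlr12 itself of 1.327 on the same scale. Tlr7 was nearest to Adap1 (0.296), C3ar1 (0.309) and Cebpa (0.331), and Tlr9 to Klrk1 (0.395), Calhm2 (0.415) and Plscr3 (0.444). The nearest genes of Tlr13 were Tnfrsf1b (0.228), Abr (0.239) and Themis2 (0.266). Of the surface receptors, Tlr1 was nearest to Igsf8 (0.218), Dok1 (0.236) and Apobec1 (0.24), Tlr2 to St3gal4 (0.161), Neurl3 (0.187) and Arhgap25 (0.195), and Tlr6 to Lcp1 (0.267), Ccr1 (0.305) and Rab27a (0.31). The 20 points share their libraries and depth, and the likeness is a description.

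The mouse genes left out of the 10 were low. Tlr5, the flagellin receptor, was at 17.6 CPM at most in any library and did not pass in any comparison. Tlr11, a second profilin receptor of mice, was at 0 to 9.28 CPM in vehicle mMDSC (0 to 196 counts), 0 to 3.28 in CBPi mMDSC and 0 to 0.97 in gMDSC, where 4 of 5 libraries of each group were at 0. Its values in vehicle mMDSC covered the whole range from 0, so single libraries set its level. It passed the count filter in mMDSC under CBPi and in the vehicle comparison of cell types, where it was lower in gMDSC (-4.39 ± 1.40, adjusted p = 0.0403), but not in the other 2 pairwise comparisons.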

How the data were processed

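Each of the 20 files held, for 23090 Entrez gene IDs, a whole-number read count and an RPKM value, both deposited by the authors beside a gene width. The counts carry no normalization. The deposited RPKM values served only to work out the total the authors had divided by. The gene counts came to 50.25% to 62.44% of it, with the lowest share in vehicle gMDSC 3. Alignment was with GSNAP to GRCm38, per the submitters' processing notes. Neither the counting program nor its strand setting is given in the sources used here, so reads of overlapping or antisense genes cannot be told apart. Widths were multiples of 3 for all 10 receptors and for 79.97% of genes, so they are used as coding lengths. Symbols and coordinates came from RefSeq tables (GRCm38.p6), in which 21647 IDs had a symbol and 1443 did not. The counts of each receptor differed from those of every other gene.

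Library totals of 12.37 to 26.64 mega-counts set the precision of low transcripts, and the replicates of a group all differed by more than sampling noise (the lowest chi-square divided by its degrees of freedom was 21.6). Tests used edgeR 4.0.16 under R 4.3.3 (TMM, filterByExpr with minimum count 10 and total 15, glmQLFit and glmQLFTest), on the 10 libraries of each pairwise comparison and on 20 for the interaction. The Benjamini-Hochberg adjusted p over all genes tested had to be under 0.05. The fits were tested on simulated data. CPM was scaled by TMM over 20 libraries. Alternatives were RLE scaling, no filter, DESeq2 1.42.0, limma-voom (limma 3.58.1), 1 fit of 20 libraries, the library number as a block, each library left out, and, chosen after seeing the data, vehicle gMDSC 3 and 5 left out together.

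All receptors were named in every comparison, with the 2 genes of smallest adjusted p among those called in each role list and the 3 genes most like each receptor called under CBPi. Other called genes of a list, Unc93b1, Ticam1, Ly96 and the marker genes in the text were chosen after their values were seen. The receptors and lists were chosen with earlier results of these data known.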

Additional observations from a re-analysis of the deposited data

Results flagged for a closer look

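Of 40 groups of 5 libraries (10 receptors in 4 groups), 6 held a library that stood apart from the other 4, by a gap over 0.71 of the group's range. Chance gives about 1 in 20 groups where the groups are independent and their values normally distributed. The 40 groups here come from the same 20 libraries, so the number flagged cannot be judged against that rate. Tlr1 was lowest in CBPi gMDSC 6, at 65.14 CPM, with the others at 111 to 127. Tlr3 was lowest in vehicle mMDSC 3, at 30.38 CPM, with the others at 49.7 to 57.1. Tlr4 was lowest in vehicle mMDSC 4, at 44.24 CPM, with the others at 99.3 to 119, and highest in CBPi mMDSC 7, at 102.2 CPM, with the others at 66.2 to 76.2. Tlr6 was highest in vehicle gMDSC 1, at 177.6 CPM, with the others at 100.4 to 119. Tlr13 was lowest in vehicle gMDSC 3, at 254.8 CPM, with the others at 601 to 736, and this library also had the lowest correlations with its group.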

How the results depend on the processing

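No receptor's log2 fold change that was called changed sign under any alternative run. In mMDSC under CBPi, 7 receptors were lower, 4 in 1 fit of all 20 libraries and 4 to 8 when each library was left out (8 without vehicle mMDSC 4, through Tlr8). Genes called higher there were 360, and 675 with DESeq2, 165 in the fit of 20 libraries and 221 to 448 when each library was left out. In gMDSC under CBPi, 1 receptor was lower, and 2 (Tlr12 and Tlr7) with DESeq2 and in the fit of 20 libraries, and 1 to 2 when each library was left out (2 without vehicle gMDSC 3). Genes called there were 489 higher and 646 lower, against 860 and 1051 with DESeq2, 872 and 1310 in the fit of 20 libraries, and 229 to 658 and 358 to 736 when each library was left out. Between the cell types in vehicle, genes called lower were 935, and 1519 in the fit of 20 libraries and 676 to 1521 when each library was left out, the last without gMDSC 3. Under CBPi, receptors called lower were 2, and 1 to 2 when each library was left out. For the interaction, 63 genes were higher and 29 lower, against 184 and 93 with DESeq2, 17 lower with limma-voom, and 23 to 85 and 10 to 32 when each library was left out. Where no value beside it shows the cause, the cause was not tested.

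The same library numbers recur in both cell types, and the deviations of same-numbered libraries correlated at -0.031 to 0.168, over 0.1 in 2 of 10 pairs, with 1 number the best match from both sides, so the numbers were not taken to pair the samples. With the replicate block the interaction gave 33 genes higher and 19 lower, and in vehicle the block gave 3 receptors higher and 4 lower in gMDSC (Tlr13 at 0.82, adjusted p = 0.0723, and Tlr3 at -0.94, adjusted p = 0.0297, both by edgeR). Tlr9 rested on the fewest counts of the 10 receptors, down to 34 in a library.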
